A study of Drosophila melanogaster with 2 samples.

Results

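The summits described here are those of a Twist chromatin immunoprecipitation that lie at promoters of protein-coding genes. The authors' list of 6516 peaks kept by irreproducible discovery rate (IDR) held 2344 with a summit within 500 bp of an annotated transcription start of a protein-coding gene, and 4172 without. The share was 36.0% (95% Wilson interval 34.8 to 37.1%). The chromatin came from whole Drosophila melanogaster embryos of mixed sex, 2 to 12 h old, of a transgenic line that stably expresses Twist with GFP at its C-terminus, and it was precipitated with an antibody against GFP. There was 1 group of 2 biological replicates and no other genotype, stage or antibody. The fusion comes from an insertion, whose effect on the level and place of Twist the labels do not give, and every tissue of the embryo contributed chromatin. Peaks are ranked by the signal value in the authors' lists, of which no scale is given. Rank 1 is the highest signal of a list. Depth is unknown, because peak lists hold no reads, so intervals cover the counting of summits or genes only.

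Twist is a basic helix-loop-helix protein that specifies the early mesoderm and binds E-boxes, sites of the form CANNTG. The E-box types it is best known for are CATATG and the related type CACATG, and both are called Twist E-boxes here. Many of its known target enhancers lie away from the start of the gene, whereas the promoter is where RNA polymerase is recruited to genes of every kind, those used by all cells included. In the compact fly genome many neighbouring genes are transcribed away from each other from starts that lie close together. Such divergent pairs share 1 promoter region.

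The windows below, which reach 50 bp to each side of a summit, show the kinds of sequence that high-signal promoter summits held. They are read from the Release 6 (dm6) assembly on the strand of the nearest gene, and Twist E-boxes on either strand are in capitals. Among the chromosome arms it drew on, which were not all of them, the rule took the strongest summits whose window touches no annotated exon. Summits elsewhere were passed over whatever their rank. The first 4 hold a Twist E-box:
CG32982: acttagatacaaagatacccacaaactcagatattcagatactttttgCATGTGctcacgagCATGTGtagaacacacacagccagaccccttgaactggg
bol: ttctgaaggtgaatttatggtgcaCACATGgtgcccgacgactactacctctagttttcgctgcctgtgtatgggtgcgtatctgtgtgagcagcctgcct
CenG1A: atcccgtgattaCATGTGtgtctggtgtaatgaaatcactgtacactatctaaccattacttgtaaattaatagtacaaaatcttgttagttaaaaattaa
Him: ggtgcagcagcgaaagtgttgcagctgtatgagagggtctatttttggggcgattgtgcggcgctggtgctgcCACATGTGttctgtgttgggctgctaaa
The window of CG32982 (chr2L:9151008-9151108, plus strand, IDR rank 57) held 2 matches to CACATG. That of bol, which encodes an RNA-binding protein of meiosis, held 1 (chr3L:9113711-9113811, minus strand, rank 88). That of CenG1A, which encodes a centaurin-type protein, held 1 (chr2L:13835402-13835502, plus strand, rank 106). In the window of Him, a transcriptional repressor of muscle differentiation, 2 matches on opposite strands overlap in 8 bp (chrX:18209080-18209180, plus strand, rank 133).

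By the same rule, the next windows are the strongest 2 between divergent starts and, after those, the strongest 2 of the remaining summits without any CANNTG:
Art3: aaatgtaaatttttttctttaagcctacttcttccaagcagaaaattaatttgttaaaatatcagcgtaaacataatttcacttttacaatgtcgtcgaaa
CG5611: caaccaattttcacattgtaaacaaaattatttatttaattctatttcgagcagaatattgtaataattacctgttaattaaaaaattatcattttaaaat
ph-p: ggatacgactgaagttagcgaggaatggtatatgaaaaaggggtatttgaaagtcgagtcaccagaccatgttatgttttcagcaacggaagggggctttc
CG18549: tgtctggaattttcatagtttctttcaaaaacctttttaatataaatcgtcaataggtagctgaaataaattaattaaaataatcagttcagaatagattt
The window between Art3, a protein arginine methyltransferase gene, and mRpS10, which encodes a mitochondrial ribosomal protein, lies at chr3R:15229480-15229580 on the minus strand and had a GC content of 25.7%. That between CG5611 and Mtl lies at chr3R:27636125-27636225 on the minus strand and had 17.8%. The window of ph-p (chrX:2137235-2137335, minus strand), a Polycomb group gene, had 44.6%, and that of CG18549 (chr3R:12449114-12449214, plus strand) 22.8%. None of these 4 windows held an E-box of any type, although their summits ranked 8, 33, 6 and 39 in the IDR list.

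The 15 highest-signal promoter summits lay at genes of many kinds. The strongest was 430 bp upstream of a start of ph-p, inside an intron of the gene (chromosome X, 2136003 to 2138228), at IDR rank 6, and ranked 4 in replicate 1 and 12 in replicate 2. The next lay between Art3 and mRpS10 (3R, 15229304 to 15229768) at rank 8, and ranked 5 in replicate 1 and 26 in replicate 2. At rank 11 was VepD (2R, 22408187 to 22408973), with its summit 46 bp downstream of the start in the non-coding part of an exon, and with 1 CATATG. The summits at ranks 12 to 57 belonged to CG8788 with CG44286, then px, a wing vein gene, CG14100, CG1888, Ugalt, a nucleotide sugar transporter gene, Fkbp14, CG5611 with Mtl, CG18549, CG18428 with eIF4EHP, a repressor of translation that binds the mRNA cap, mRpL41, Tcs5 with CHMP2B, and CG32982. Among the 15, those of VepD, CG8788 with CG44286, Ugalt and CG32982 held a Twist E-box. Of the 15, 13 ranked higher in replicate 1 than in replicate 2, the exceptions being VepD (21 in replicate 1 and 7 in replicate 2) and CG32982 (74 and 45).

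Promoter summits clustered just upstream of the annotated start. The median distance was -105.5 bp (negative upstream), with quartiles at -191 and -25 bp, and 1891 of 2344 summits lay upstream, 80.7% (95% Wilson interval 79.0 to 82.2%). The 50 bp with the most summits, beginning 150 bp upstream, held 413, against 166 in the 50 bp from the start onwards. The stronger summits lay farther upstream: the median distance was -141 bp at IDR ranks 1 to 1629, -115.5 bp at ranks 1630 to 3258, -89 bp at ranks 3259 to 4887 and -65 bp at ranks 4888 to 6516. By annotation, 1263 summits (53.9%) were outside every gene, 572 (24.4%) in introns, 481 (20.5%) in non-coding parts of exons and 28 (1.19%) in coding exons. A start of a gene that is not protein-coding also lay within 500 bp of 117 of them (4.99%).

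**Figure D1:**
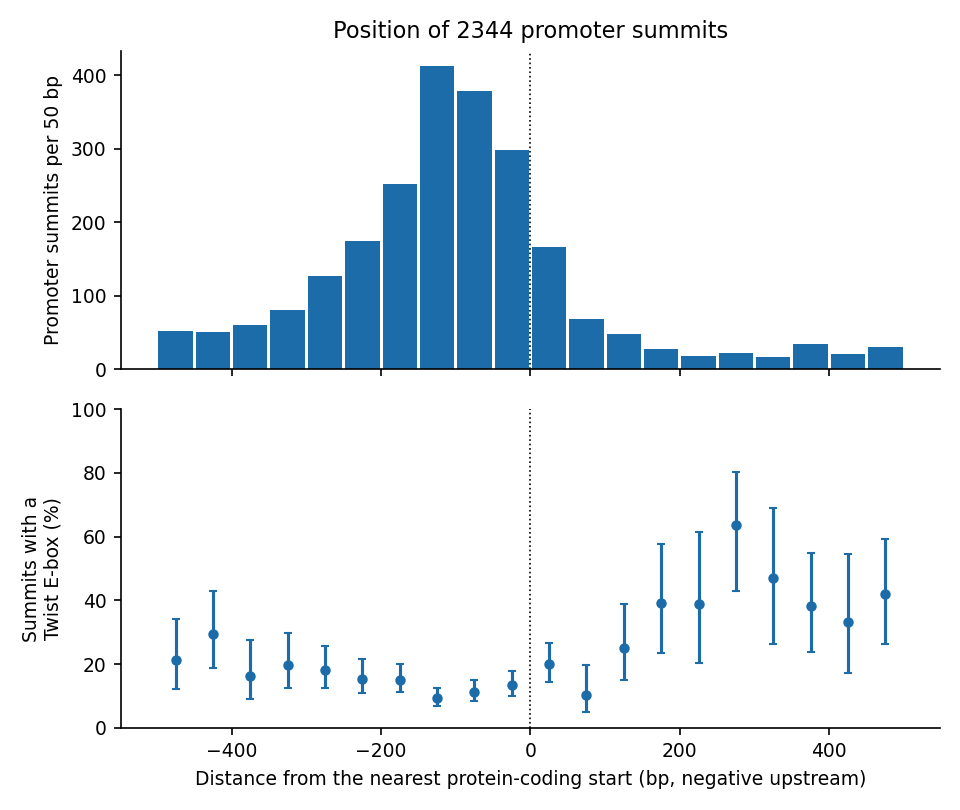
Number of promoter summits per 50 bp (top) and share of them with a Twist E-box within 50 bp (bottom, points with 95% Wilson intervals) by distance from the nearest protein-coding start, negative upstream. Summits are most numerous between 50 and 150 bp upstream, where few hold a Twist E-box, and the share is higher among the few summits more than 100 bp downstream.

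The Twist E-box content changed with position. At more than 100 and up to 250 bp upstream, 104 of 841 summits held a Twist E-box (12.4%, 95% Wilson interval 10.3 to 14.8%), and within 100 bp upstream 83 of 678 (12.2%, 9.99 to 14.9%). At more than 100 bp downstream it was 85 of 217 (39.2%, 32.9 to 45.8%), a share near that of summits away from promoters given below. At more than 250 bp upstream it was 75 of 372 (20.2%, 16.4 to 24.5%). The limit of 500 bp cuts through this range: 24 of the 82 summits in the last 50 bp inside it, on either side of the start, held one, and 25 of the 65 in the first 50 bp outside. Their median ranks were 3685.5 inside and 3361 outside.

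Twist E-boxes were found at promoter summits more often than in their own flanks 1000 bp upstream. CATATG lay within 50 bp of 166 of 2344 promoter summits, 7.08%, against 52 (2.22%) of the windows of the same length 1000 bp upstream. The ratio was 3.19, with a p of 5.85e-15 in a two-sided exact McNemar test after Benjamini-Hochberg adjustment over 10 E-box types. CACATG lay at 241, 10.3%, against 104 (4.44%), and its ratio was 2.32 (adjusted p = 6.28e-14 by the same exact test). Of the other types CACGTG reached 2.04 (exact test, adjusted p = 0.00366), CAGCTG 1.58 (0.000277) and CAGATG 1.53 (0.000432). CACCTG, which read on the other strand is the CAGGTG that Snail family repressors bind, lay at 2.56% of promoter summits and 5.03% of flanks, which is lower by the same exact test (ratio 0.508, adjusted p = 4.35e-05). The 2.56% (95% Wilson interval 1.99 to 3.28%) was close to the 2.83% of the other IDR summits and the 3.22% of starts without a summit, neither of which was set against it in a test. CAATTG was also below its flank (ratio 0.721, exact test, adjusted p = 0.0243), while CAAATG with a ratio of 0.900, CAACTG with 0.992 and CAAGTG with 0.808 did not pass (exact adjusted p = 0.332, 1 and 0.0981). The calls of both Twist E-boxes, of CACGTG and of the Snail-type CACCTG held under all 9 alternatives run for these types. CAATTG did not pass under 8 of the 9, CAGCTG under 3 and CAGATG under 2, and CAAGTG passed under 3. With flanks taken downstream instead, CATATG had a ratio of 2.81, CACATG 1.70 and CAGCTG, which did not pass, 1.23. For the 872 summits between divergent starts, described below, the upstream window reaches past the start of the neighbouring gene. GC content differed between the windows, at a mean of 36.7% at promoter summits and 43.9% in the flanks, and its part in these ratios was not tested. Peaks are not independent, so the p-values describe the list.

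At least 1 Twist E-box lay at 387 of the 2344 promoter summits, 16.5% (95% Wilson interval 15.1 to 18.1%), against 1453 of the 4172 other IDR summits, 34.8% (33.4 to 36.3%). The odds of a Twist E-box at promoter summits were 0.370 times those at other summits (95% interval 0.326 to 0.420; logistic regression over all summits, n = 6516, with log2 signal rank as covariate, two-sided Wald p = 8.07e-53). With the GC content of the window added to the model the ratio was 0.479 (0.419 to 0.546). The same shares were 14.9% against 32.8% in the 6516 highest peaks of replicate 1, and 17.9% against 35.9% in those of replicate 2. Of windows of that length placed 106 bp upstream of the protein-coding starts with no IDR summit within 500 bp, 959 of 15636 held one, 6.13%, and of those at all 19276 distinct starts 6.45%. Promoter summits with 2 or more matches numbered 70 (2.99%), against 397 (9.52%) of the other summits.

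The signal rank went with the Twist E-box less among promoter summits than among the others. At IDR ranks 1 to 1629, 112 of 571 promoter summits held a Twist E-box (19.6%, 95% Wilson interval 16.6 to 23.1%), against 500 of 1058 other summits (47.3%, 44.3 to 50.3%). At ranks 4888 to 6516 it was 81 of 556 (14.6%, 11.9 to 17.7%), against 303 of 1073 (28.2%, 25.6 to 31.0%). The difference between these trends was not tested. Promoter summits were present at all ranks: they made up 35.1% of summits at ranks 1 to 1629, 35.6% at ranks 1630 to 3258, 39.1% at ranks 3259 to 4887 and 34.1% at ranks 4888 to 6516. Their median rank was 3322, against 3228.5 for the other summits.

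**Figure D2:**
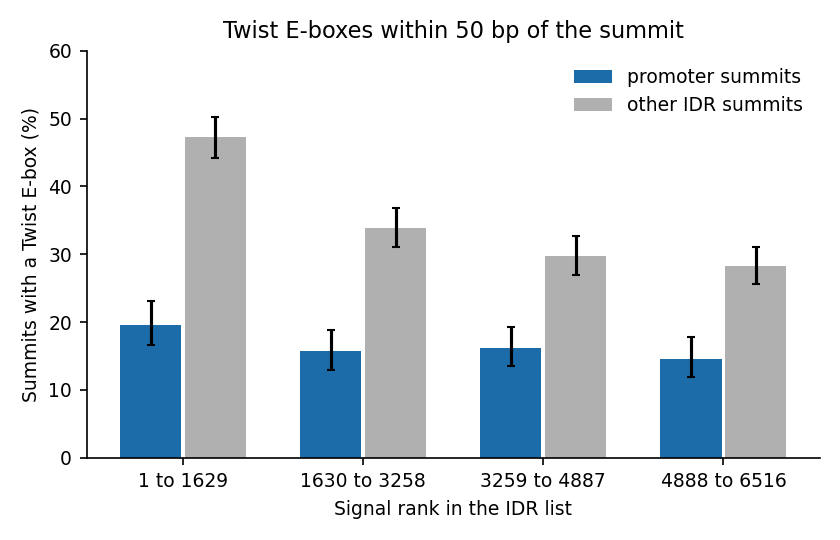
Share of summits with a Twist E-box within 50 bp, by signal rank in the IDR list, for promoter summits (blue, left of each pair) and other IDR summits (grey), with 95% Wilson intervals. Promoter summits lie between 14.6% and 19.6% in each of the 4 ranges of rank, and the other summits between 28.2% and 47.3%.

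The matches were concentrated at the summit in both classes. CATATG and CACATG together had 2.10 matches per kb within 50 bp of promoter summits and 0.798 at 250 to 300 bp. Around the other summits the densities were 4.82 and 1.19 matches per kb. The Snail-type E-box had 0.282 matches per kb within 50 bp of promoter summits and 0.444 at 250 to 300 bp, against 0.292 and 0.319 around the other summits.

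**Figure D3:**
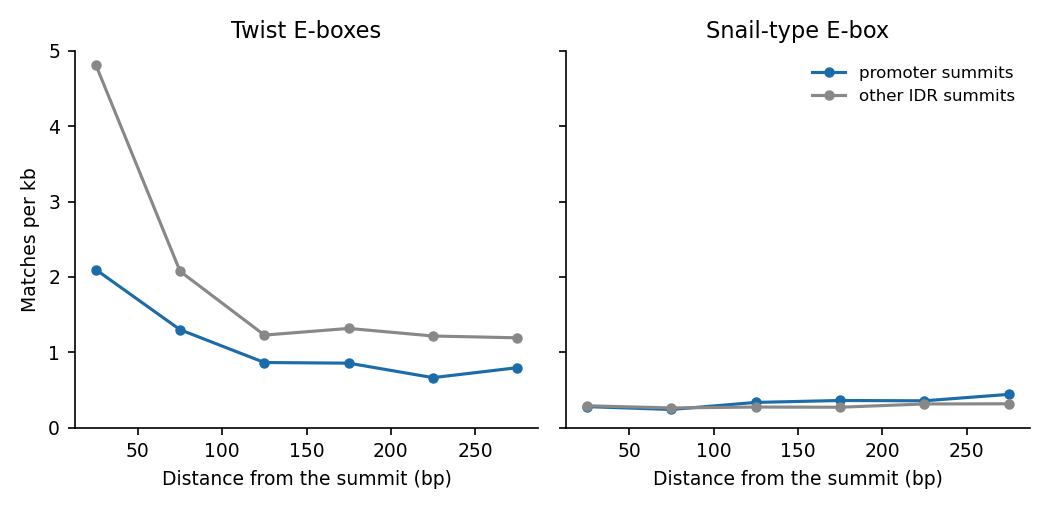
Density of the Twist E-boxes (CATATG and CACATG summed, left) and of the Snail-type E-box (CAGGTG, right) by distance from the summit in steps of 50 bp, for promoter summits (blue) and other IDR summits (grey). The Twist E-box density is highest within 50 bp of both kinds of summit, at 2.10 and 4.82 matches per kb.

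Sequences known from promoters were counted in the same windows. The windows at starts were centred 106 bp upstream with 50 bp to each side, so they do not reach the start itself. With a median distance of -105.5 bp, many windows of promoter summits do not reach it either. The shares therefore do not measure TATA boxes or initiators at their usual places. TATAAA on either strand was present at 508 promoter summits, 21.7% (95% Wilson interval 20.1 to 23.4%), against 12.9% of the other summits and 15.6% of starts without a summit. The promoter summits that held it had a median rank of 2592.5, against 3322 for all promoter summits. This pattern also occurs in AT-rich sequence outside TATA boxes. Mean GC content of promoter summits was 32.5% at IDR ranks 1 to 1629 and 40.1% at ranks 4888 to 6516. TATCGATA, the DNA replication-related element of promoters active in most cells, was at 82 (3.50%), against 0.192% of the other summits and 1.70% of starts without a summit. GGTCACAC, the core of a motif of the same kind of promoter, was at 46 (1.96%), against 0.120% and 1.04%. GAGAG, bound by GAGA factor, was at 10.8%, against 13.7% of the other summits and 2497 of the 15636 starts without a summit. CAGGTAG, bound by the early activator Zelda, was at 15 promoter summits (0.640%), against 1.08% of the other summits. TCAGT, part of the initiator, was at 15.1%, against 15.5%, and the repeat CACACACA at 3.33%, against 5.56%. Over all distinct starts TATAAA was in 16.3% of windows, TATCGATA in 1.90%, GGTCACAC in 1.09%, TCAGT in 16.2%, CAGGTAG in 0.659% and CACACACA in 2.29%. Promoter summits with TATCGATA had a median rank of 4328.5, and those with GGTCACAC 4106.5. The medians were 3806 with GAGAG, 3358.5 with TCAGT, 4365 with CAGGTAG and 4072.5 with CACACACA. These shares and ranks carry no test.

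Some of the promoter summits lay between divergent starts. Of the 2344 summits, 872 lay between a minus-strand start and a plus-strand start of different protein-coding genes at most 1000 bp apart, 37.2% (95% Wilson interval 35.3 to 39.2%). The median gap between those starts was 320.5 bp, and 485 of the 872 lay in gaps of more than 200 and at most 400 bp. Of all protein-coding genes 36.2% had a divergent protein-coding start within 1000 bp, a share of genes and not of summits. Counted by genes, 1844 of these 5052 had a promoter summit (36.5%, 95% Wilson interval 35.2 to 37.8%). Among genes without a divergent start it was 1081 of 8916 (12.1%, 11.5 to 12.8%). In the highest peaks of replicate 1 the shares were 39.4% and 12.8%, and in those of replicate 2 32.3% and 11.5%. A summit between paired starts counts for both genes, and the difference was not tested. Starts of 1 gene alone lay within 500 bp of 1474 summits (62.9%), starts of genes on both strands of 831 (35.5%) and starts of several genes on the same strand of 39 (1.66%).

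Summits between divergent starts held a Twist E-box less often than other promoter summits, a difference that was not tested. It was present at 73 of 872 (8.37%, 95% Wilson interval 6.71 to 10.4%), against 314 of the 1472 other promoter summits (21.3%, 19.3 to 23.5%). Within gaps of more than 200 and at most 400 bp it was at 29 of 485 (5.98%, 4.20 to 8.46%), close to the 6.13% of starts without a summit, and in gaps of more than 600 bp at 24 of 128 (18.8%, 12.9 to 26.4%). Mean GC content of the window was 32.1% between divergent starts and 39.4% at the other promoter summits, and its part in the difference was not tested. The median IDR rank was 3099 between divergent starts, against 3428 at the other promoter summits. In replicate 1 the medians were 2598 and 3420.5, and in replicate 2, where summits between divergent starts ranked lower, 4031 and 3590.

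The replicates ranked promoter summits differently. The N highest peaks, with N the 6516 of the IDR list, held 2500 promoter summits in replicate 1 (38.4%, 95% Wilson interval 37.2 to 39.6%) and 2187 in replicate 2 (33.6%, 32.4 to 34.7%). Matched within 100 bp, 2210 of the 2344 were in both replicate lists (94.3%, 95% Wilson interval 93.3 to 95.2%), against 4008 of the 4172 other IDR summits (96.1%, 95.4 to 96.6%). Among the N highest of replicate 1 were 91.2% of promoter summits, against 86.3% of the others, and among those of replicate 2 79.6%, against 87.1%. Of the remaining promoter summits 32 were found in replicate 2 only, 1 in no replicate list and the others in replicate 1 only. The median rank of promoter summits was 3114 in replicate 1 and 3746.5 in replicate 2, whereas that of the other IDR summits was 3438 in replicate 1 and 2973 in replicate 2. Of the 2210 promoter summits in both, 1531 ranked higher in replicate 1 than in replicate 2 (69.3%, 95% Wilson interval 67.3 to 71.2%), against 1597 of 4008 other summits (39.8%, 38.3 to 41.4%). The ranks of the replicates had a Spearman rho of 0.723 over promoter summits and 0.758 over the other summits. This is a description across peaks that share libraries, a control file and the selection by IDR. Since the IDR list was derived from both replicates, agreement within it is partly built in.

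The share ranked higher in replicate 1 was largest between divergent starts and at summits without a Twist E-box. Between divergent starts 709 of 818 summits ranked higher in replicate 1 (86.7%, 95% Wilson interval 84.2 to 88.8%), against 822 of 1392 elsewhere at promoters (59.1%, 56.4 to 61.6%). Of promoter summits with a Twist E-box 147 of 373 ranked higher in replicate 1 (39.4%, 34.6 to 44.5%), against 1384 of 1837 without one (75.3%, 73.3 to 77.3%). With summits matched within 50 bp the share between divergent starts was 86.4%. With 1 library on each side, the difference cannot be told apart from any difference between the libraries.

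**Figure D4:**
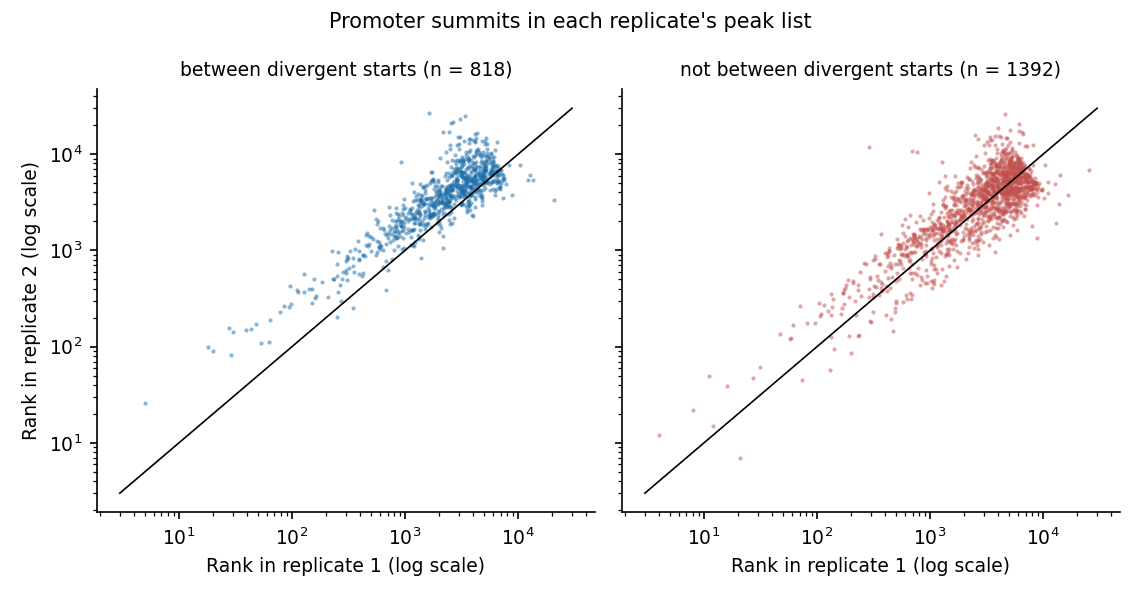
Rank of each promoter summit in replicate 1 (horizontal) and replicate 2 (vertical), both on log scales, for 818 summits between divergent starts (left) and 1392 others (right) found in both lists; the line marks equal ranks. Most points between divergent starts lie above the line, which is a higher rank number, and so a lower signal, in replicate 2.

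The promoter summits belonged to 2925 of 13968 protein-coding genes, or 20.9%, which is the share every gene list below is read beside. Of these genes 2619 had 1 promoter summit, 274 had 2 and 32 had 3 or more. For 1827 (62.5%) the strongest summit in the gene or within 5 kb of it was the promoter summit, and 1090 (37.3%) had no other summit there. The 20.9% does not apply to the list counts below for that wider region, for which no share of all genes is given. The genes with the most promoter summits were larp, which encodes an RNA-binding protein, Rtnl1, a reticulon gene, and the phosphatase gene Ptpmeg2, with 5 each. Keap1, a sensor of oxidative stress, Drat, spi, an epidermal growth factor receptor ligand, and SNF4Agamma, a subunit of AMP-activated kinase, had 4 each. The share went up with the number of annotated starts: 16.2% of genes with 1 start had one, 29.5% with 2, 42.0% with 3 and 48.6% with 4 or more. Each further start adds a window in which a summit counts for the gene, so a rise is partly built in. Genes with a promoter summit had a median length of 3127 bp, against 1960 bp for genes without. Of them 8.14% were annotated with single-exon transcripts only, against 17.1%. Their mean number of starts was 1.75, against 1.31, for which these values were not adjusted. The share of genes with a promoter summit ranged from 18.7% on X to 23.8% on chromosome 4.

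Genes of the ribosome and of mitochondrial translation often held a promoter summit. Of 85 cytosolic ribosomal protein genes 63 did (74.1%, 95% Wilson interval 63.9 to 82.2%), against 20.9% of all protein-coding genes. The median rank of their 68 summits was 2533 by the first replicate and 4422 by the second, the median distance was -36 bp, and 2 of the 68 held a Twist E-box. Summits of high signal among them were at RpS27 (IDR rank 441; 308 in replicate 1 and 884 in replicate 2) and RpL34b (rank 551). Of 73 mitochondrial ribosomal protein genes 34 did (46.6%, 35.6 to 57.9%), led by mRpS10 (rank 8), mRpL41 (51) and mRpS23 (106), and 32 of their 35 summits lay between divergent starts. The gene beside mRpS23 is CenG1A, whose window with a CACATG match is shown above. Of 33 aminoacyl-tRNA synthetase genes 12 did (36.4%, 22.2 to 53.4%), led by SerRS (rank 887), IleRS (1023) and GluProRS (1120). All 14 of their summits were divergent. Of all genes with a divergent start within 1000 bp 36.5% had a promoter summit. How many genes of these lists have such a start was not counted.

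Other lists of genes used in most cells lay nearer to the background. Promoter summits were at 12 of 44 genes named as translation initiation factors (27.3%), led by eIF4EHP (rank 41), eIF6 (295) and eIF3c (1227). They were at 11 of 40 genes of mitochondrial complex I (27.5%), led by ND-MWFE (898), ND-B17.2 (1567) and ND-ASHI (1771), none of whose list's 11 summits held a Twist E-box. Of 38 proteasome subunit genes 10 had one (26.3%), led by Prosbeta1 (2437), Rpn5 (2577) and Rpn6 (2705). Of 33 genes of the vacuolar ATPase 7 had one (21.2%), led by Vha100-2 (1099), Vha55 (3010) and VhaPPA1-1 (3270).

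Cell cycle and chromatin genes were also represented. Of 28 cell cycle genes 10 had a promoter summit (35.7%, 95% Wilson interval 20.7 to 54.2%). They were led by tum, needed for cytokinesis (rank 766), the mitotic kinase gene aurA (1626) and the cyclin gene CycB3 (1875). None of the 11 summits held a Twist E-box. Of 20 DNA replication genes 6 had one (30.0%, 14.5 to 51.9%), and all 7 summits were divergent. The strongest were at RnrS (541), a ribonucleotide reductase subunit, Mcm2 (1834), which encodes a part of the replicative helicase, and dup (3778). The Mcm2 summit was matched in replicate 1 (rank 1233) and had no summit within 100 bp in replicate 2. Of 18 Polycomb and trithorax group genes 11 had one (61.1%, 95% Wilson interval 38.6 to 79.7%), led by ph-p (6), the chromatin remodeller gene brm (207) and the histone methyltransferase gene E(z) (223), and 5 of their 18 summits held a Twist E-box. The summits of brm and E(z) lay between divergent starts, shared with Arl1 and Cnep1r2.

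Of the 13 early mesoderm genes 8 had a promoter summit (61.5%, 95% Wilson interval 35.5 to 82.3%). With only the most upstream start of each gene the count was 4. The strongest promoter summit was 341 bp upstream of a start of stumps, an adaptor of fibroblast growth factor signalling (3R, 14590531 to 14591799; IDR rank 367, 365 in replicate 1 and 402 in replicate 2). That of zfh1, a zinc finger and homeodomain factor gene, lay 499 bp upstream (rank 603), just inside the limit, and held a Twist E-box. At twi itself a summit lay 89 bp downstream of a start (2R, 23045858 to 23046397; rank 634, with 1038 in replicate 1 and 409 in replicate 2). The heart regulator tin had one at -226 bp (rank 937), and the muscle regulator Mef2 at -410 bp (rank 1080), with a Twist E-box. Traf4 had one at -208 bp (rank 1468), the receptor gene htl at -191 bp (rank 2185), and sna, the mesodermal repressor gene, at -105 bp (rank 3250, with 4038 in replicate 1 and 2537 in replicate 2). In all 8 the strongest summit in the gene or within 5 kb lay away from the promoter, at ranks from 1 for Mef2 to 2037 for sna. The genes trbl, T48, mthl1 and fog had summits in the gene or within 5 kb and none at the promoter, and Ilp4 had none at all.

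The lists of mesoderm derivatives had shares above that of all genes in the IDR list, but not all of them did so under every setting. Of 11 cardiac mesoderm genes 8 had a promoter summit (72.7%, 95% Wilson interval 43.4 to 90.3%), led by Him (rank 133; 200 in replicate 1 and 85 in replicate 2), tin (937) and tup (1884), and H15, Hand and svp had none. With promoters of 250 bp the count was 5. In the list for somatic muscle identity and fusion 9 of 18 genes had one, led by mbc, needed for myoblast fusion (1682), kirre, a receptor of founder cells (2371), and slou (3510). The summit of mbc lay between divergent starts, shared with Nup98-96, and ranked 1310 in replicate 1 and 2936 in replicate 2. Of the 18 genes 17 had a summit in the gene or within 5 kb, as had 76 of 85 cytosolic ribosomal protein genes. In the 3258 IDR peaks with the higher signal the count of genes with a promoter summit was 2 of 18, a share not above the 1555 of 13968 of all genes there. Of 8 visceral mesoderm genes 3 had one (37.5%, 13.7 to 69.4%), at org-1 (175), HLH54F (500) and the receptor tyrosine kinase gene Alk (2935). The genes bap, bin, Fas3, jeb and beat-IIa had none. Of 18 genes of muscle structural proteins 7 had one (38.9%, 20.3 to 61.4%). They were led by the actin gene Act87E (167), sls (780), which encodes titin-like proteins, and the tropomyosin gene Tm1 (2028). Of their 9 summits 3 held a Twist E-box and none lay between divergent starts. With promoters of 250 bp the count of genes was 3 of 18, a share not above the 2352 of 13968 of all genes in that setting.

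Patterning genes that also act outside the mesoderm varied by list. Of 17 genes of the Notch pathway and its targets 9 had a promoter summit (52.9%, 95% Wilson interval 31.0 to 73.8%), led by E(spl)m7-HLH (352), E(spl)m3-HLH (590) and E(spl)mbeta-HLH (629), basic helix-loop-helix repressor genes. With promoters of 250 bp the count was 4. Of 17 segmentation genes 6 had one (35.3%, 17.3 to 58.7%). They were led by hh, a secreted signal (208), wg, a Wnt ligand (1993), and hairy, annotated as hry (2919). A summit in the gene or within 5 kb was present at 15 of the 17, again with no share of all genes beside it. In the highest peaks of replicate 2 alone 9 of the 17 had a promoter summit, and in those of replicate 1 alone 5. Of 17 dorsal and neurogenic ectoderm genes 5 had one (29.4%), led by aos (532), which encodes an inhibitor of epidermal growth factor receptor signalling, and tup (1884), which encodes a LIM homeodomain factor. That count was 4 in the highest peaks of replicate 1, 7 in those of replicate 2, 3 with promoters of 250 bp and 2 in the 3258 IDR peaks with the higher signal. Of 11 neural differentiation genes 1 had one, elav (211), which encodes a neuronal RNA-binding protein. The neural count was 3 without replicate 2, 1 without replicate 1 and 0 with promoters of 250 bp.

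Gene families of the adult senses and of the cuticle held few or no promoter summits. None was found at 119 odorant and gustatory receptor genes (upper limit of the 95% Wilson interval 3.13%). The same held for 60 ionotropic receptor genes (upper limit 6.02%) and 70 cuticular protein genes (5.20%). In these 3 lists 21, 14 and 14 genes had a summit in the gene or within 5 kb, again with no share of all genes beside it. In the highest peaks of replicate 1 the odorant and gustatory list had 1 gene and the ionotropic list 0, and in those of replicate 2 they had 2 and 1. Of 85 cytochrome P450 genes 4 had one (4.71%, 95% Wilson interval 1.85 to 11.5%), led by Cyp6u1 (696), Cyp310a1 (1110) and Cyp12a5 (3958), and 7 with promoters of 1000 bp. Of the 23 lists 18 lay above the share of all protein-coding genes in the IDR list, and 13 did so under each of the 7 settings in which genes were counted. Among the 18, the Wilson intervals of the cell cycle, DNA replication, visceral mesoderm, muscle structural, segmentation and ectoderm lists included the 20.9% of all genes. So did those of the translation initiation, complex I, proteasome and vacuolar ATPase lists. The vacuolar ATPase list, at 21.2% in the IDR list, was above it under 2 of the 7. In the 3258 IDR peaks with the higher signal the counts of 2 of 20 DNA replication genes and 4 of 38 proteasome genes were also not above the share of all genes. Summits shared by neighbouring genes mean that members of a list are not independent, and the lists carry no test.

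**Figure D5:**
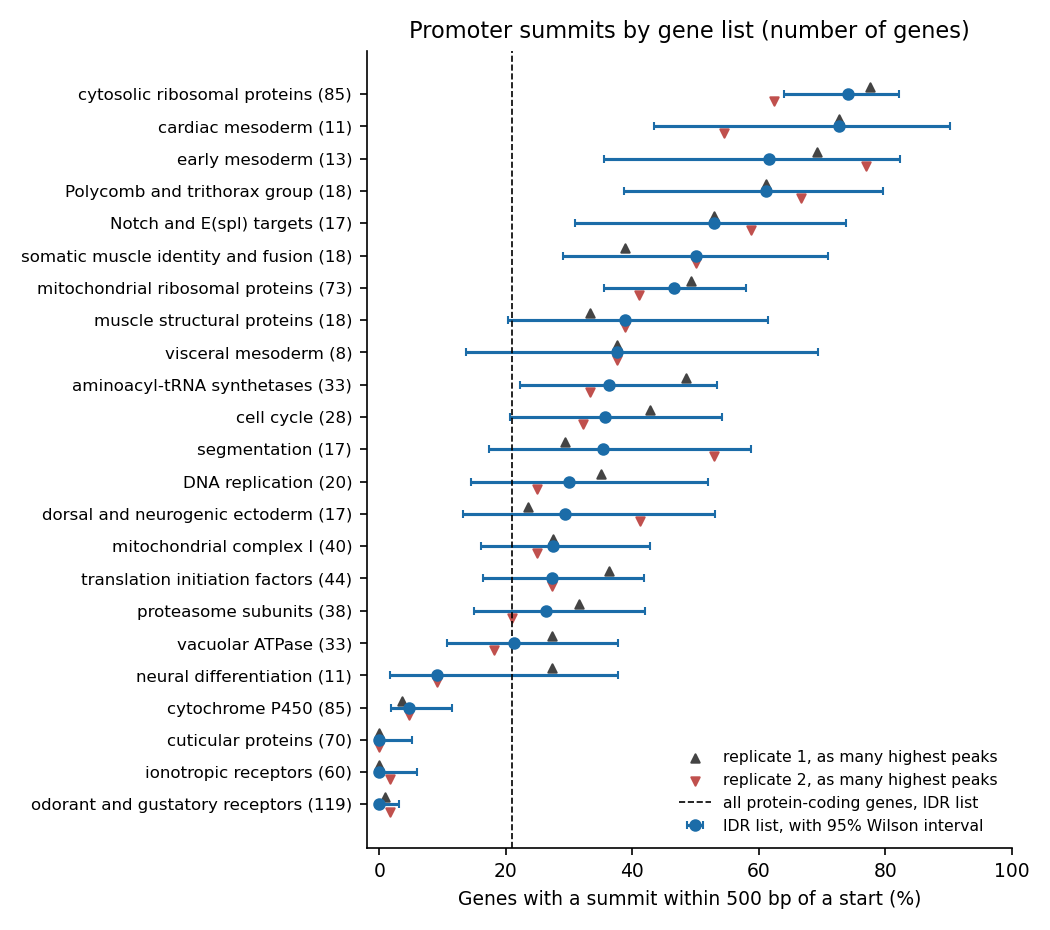
Share of each gene list with a summit within 500 bp of a start: IDR list with 95% Wilson interval (circles), and the 6516 highest peaks of replicate 1 (upward triangles) and replicate 2 (downward triangles). The dashed line is the 20.9% of all protein-coding genes; cytosolic ribosomal proteins lie at 74.1% and the receptor and cuticle lists at 0.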

How the data were processed

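Peak lists in narrowPeak format were used as deposited, in dm6, per the labels. Per the records deposited with the files, the authors called each replicate's peaks against the same control file and derived the IDR list from the replicate lists and a pooled list. For aligner and caller, versions and settings were not given in the sources used here. Peaks were only ranked by the deposited signal score, whose scale is unknown. The deposited −log10 q-value was not used, being tied in all IDR peaks. The pooled list was not used here.

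Starts were those of protein-coding transcripts in Ensembl release 115 (13968 genes, 19276 distinct starts). Sequence came from the Release 6 assembly, and no peak end (0) passed a chromosome end. Positions are 1-based. Without a replicate, the highest 6516 peaks of the other took the place of the IDR list. All 876 entries of 23 gene lists were found. The logistic model and the McNemar test were tested on simulated data. Members, lists and tests were chosen with earlier results of these data known. The rule named the genes of the 15 strongest promoter summits, the 5 genes with the most (7 with ties), all early mesoderm genes, and from the other lists the 3 with the strongest summit and, where at most 5, those without. Replicates are biological, per the labels. Tools were scipy 1.17.1, numpy 2.4.6, pandas 2.3.3 and, for figures, matplotlib 3.10.9, in Python 3.11.15.
Tests used a threshold of 0.05. Alternatives varied the promoter, motif, match and gap distances, the choice of start, the peaks kept, the flank and the covariates. Some genes that the rule names are not reported here.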

Additional observations from a re-analysis of the deposited data

How the results depend on the processing

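The odds ratio of Twist E-boxes at promoter against other summits stayed below 1 and past the threshold under all 10 alternatives run for it, between 0.309 and 0.480. With promoters of 250 bp, 28.3% of IDR summits were at promoters, 45.5% of those between divergent starts, 82.2% upstream and 13.9% with a Twist E-box; with 1000 bp the values were 44.3%, 30.2%, 74.5% and 20.2%. With the most upstream start of each gene they were 29.3%, 34.3%, 77.0% and 13.7%. In the 3258 IDR peaks with the higher signal, promoter summits had a median rank of 1643, 96.5% were in both replicates, 39.6% between divergent starts and 83.5% upstream, 4 E-box types passed and 1555 genes had one, fewer peaks being counted. Leaving out a replicate gave promoter shares of 33.6 to 38.4%, median ranks of 3200.5 to 3533, divergent shares of 32.6 to 39.4%, upstream shares of 78.0 to 82.3%, Twist E-box shares of 14.9 to 17.9%, 7 to 8 E-box types, odds ratios of 0.353 to 0.407 and 2657 to 3128 genes. Matching within 50 or 200 bp put 78.1% or 97.5% of promoter summits in both replicates. With divergent starts at most 500 bp apart 29.4% lay between them. Windows of 25 or 100 bp on each side held a Twist E-box at 9.09% or 24.6%. No paired analysis was possible because there is 1 group.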
